A study of Mus musculus with 4 samples.

Results

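The genes described here are 10 luminal lineage transcription factors and hormone receptors of the mammary epithelium, namely Foxa1, Gata3, Esr1, Pgr, Prlr, Elf5, Elf3, Ehf, Spdef and Cited1. They were taken by symbol, and each was read at its probe set with the highest mean, where a probe set is the group of array probes summarised into 1 value. Of the 10 genes, 9 had a probe set with a gene symbol of its own, out of 22180 genes named in the same way, and Prlr was not analysed here. Total RNA, labelled with biotin, was read on Affymetrix arrays of a single channel. The cells were tumour lines of MMTV-NIC mice (ErbB2-IRES-Cre), made from mammary tumours that ErbB2 drives in female mice of strain FVB, whose transgene, driven by the MMTV promoter, couples ErbB2 to Cre recombinase. One group received 2 µM GSK-126 for 96 h (GSK126, n = 2 arrays), and the other received the vehicle DMSO for the same time (n = 2 arrays). Both groups carried the transgene, and both grew in DMEM with 5% FBS, 5 ng/ml EGF, 1 µg/ml hydrocortisone, 5 µg/ml insulin and 35 µg/ml bovine pituitary extract. GSK126 inhibits EZH2, the methyltransferase that places the repressive histone mark H3K27me3. The labels do not give the age of the mice, or say whether replicates were separate lines or separate cultures, so p-values cover only how far these arrays differ, and that spread may be technical.

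The luminal layer of the mammary gland holds hormone-sensing cells, which carry estrogen, progesterone and prolactin receptors, and alveolar progenitors, which give rise to milk-secreting cells. FOXA1 opens chromatin for the estrogen receptor in the first branch, whereas the ETS factor ELF5 drives the second, downstream of prolactin signalling. GATA3 acts in both branches, and EZH2 has been linked to the maintenance of luminal progenitors. Foxa1, Esr1, Pgr, Prlr, Spdef and Cited1 are grouped below as hormone-sensing genes, and the ETS factor genes Elf5, Elf3 and Ehf as alveolar genes. This grouping is a simplification, since ELF3 and EHF act widely in epithelia, the prolactin receptor is also needed in alveolar cells, and SPDEF is an ETS factor as well.

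Values are log2 expression values, and changes are GSK126 minus DMSO on that scale with their standard error (SE). Probe sets differ in how brightly they read, so the level of a gene is compared between arrays and not with that of another gene. As a rough background, 95% of 1394 olfactory and vomeronasal receptor genes had mean values below 4.89, and a gene below that level in a group is called dim there. The luminal markers Krt8, Krt18 and Epcam were at 10.6, 11.7 and 10.6 in DMSO, and 1 of the 11 luminal markers measured was dim in both groups. Of the 12 basal markers measured, 3 were dim in both groups, among them the basal factor gene Trp63, and 9 were not. The basal keratin gene Krt14 was at 5.95 in DMSO. Among markers of other cell types, 8 of 10 immune, 6 of 6 endothelial, 4 of 5 adipocyte and 4 of 9 fibroblast markers were dim in both groups. Arrays correlated at 0.981 to 0.988 over all probe sets. The lowest values, 0.981 to 0.983, were those of GSK126 replicate 2, and GSK126 replicate 1 was closer to the DMSO arrays than to its own replicate.

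Of the 9 luminal factor and receptor genes measured, the ETS factor genes Elf5 and Elf3 had the lowest p-values, both lower with GSK126, and Esr1 came next, higher with GSK126. None of the 9 passed the threshold of an adjusted p under 0.05 in limma, where 0.433% of all genes did, 0.261% higher and 0.171% lower. Before adjustment, 2 of 9 had a p under 0.05, both lower, against 10.6% of all genes in either direction and 5.93% lower. That count of 2 became 0 without DMSO replicate 1 or without GSK126 replicate 2, 1 without GSK126 replicate 1, and 3 without DMSO replicate 2, where Gata3 joined it. In each of these fits 1 group is down to 1 array, which is assumed to vary like the other group. The GSK126 and DMSO arrays did not overlap for 5 of the 9, of which 2 were higher and 3 lower, against 40.1% of all genes (18.2% higher and 21.8% lower). The median change of the 9 was -0.13, beside -0.01 over all genes.

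**Figure D1:**
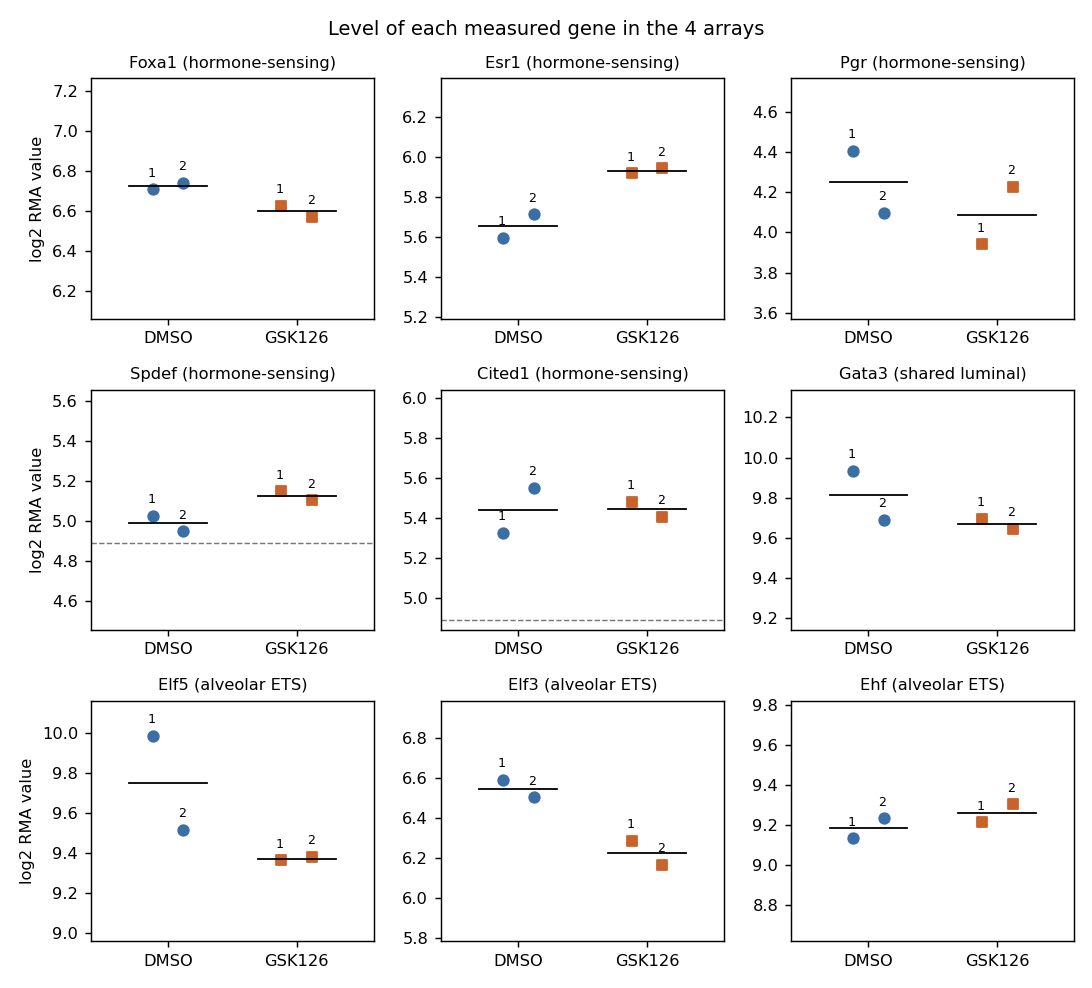
Log2 RMA value of the 9 measured genes in each array (circles DMSO, squares GSK126, numbers give the replicate, black lines the group means, each panel spanning 1.2 log2 units). A dashed line marks the background level of 4.89 where it falls in the panel. Elf5 and Elf3 lie lower in both GSK126 arrays and Esr1 lies higher, while Elf5 also differs between the DMSO arrays, at 9.98 and 9.52.

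Elf5 encodes the ETS factor that commits luminal progenitors to the alveolar fate. It read 9.98 and 9.52 in the DMSO arrays and 9.36 and 9.38 in the GSK126 arrays. Both GSK126 arrays were below both DMSO arrays, but the gap of 0.14 between the groups was smaller than the SD of 0.33 (n = 2) of the DMSO arrays. The change was -0.38 (SE 0.14, 95% interval -0.71 to -0.04), a 1.30-fold lower mean, with an unadjusted p of 0.0313 and an adjusted p of 0.421 in limma. The size rested on 1 array. Without DMSO replicate 1 the change was -0.14, and without DMSO replicate 2 it was -0.61 (adjusted p = 0.190 in limma). Each of these fits holds 1 DMSO array, which is assumed to vary as the GSK126 arrays do, and the GSK126 arrays had an SD of 0.01.

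Elf3 encodes an ETS factor of simple epithelia that is also induced by inflammatory signals. It read 6.59 and 6.50 in DMSO and 6.28 and 6.17 with GSK126, so the groups did not overlap and lay 0.22 apart. Each group spread by less than that gap. The change was -0.32 (SE 0.11, 95% interval -0.59 to -0.06), a 1.25-fold lower mean, with an unadjusted p of 0.0240 and an adjusted p of 0.391 in limma. Leaving out each array in turn gave changes from -0.38 to -0.26.

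Ehf encodes an ETS factor of epithelia closely related to ELF3 and ELF5. Its mean was slightly higher with GSK126, where those of Elf5 and Elf3 were lower. The DMSO arrays read 9.13 and 9.24 and the GSK126 arrays 9.22 and 9.30, which overlapped. The change was 0.08 (SE 0.09, 95% interval -0.13 to 0.28, adjusted p = 0.829 in limma). The interval of Ehf lies above the changes measured for Elf3 and Elf5, but it overlaps the intervals of both. No difference between these genes was tested.

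The promoter windows of Elf5 and Elf3 are printed because these genes had the lowest p-values of the set, and because PRC2, the complex that holds EZH2, is known to be recruited to stretches rich in CpG dinucleotides. The windows run from 250 bases before to 50 after a transcription start in RefSeq (build GRCm38.p6), 5′ to 3′ on the strand of the gene, with CpG dinucleotides in capitals. The Elf5 window lies at chr2:103411848-103412147 on the plus strand, and the Elf3 window at chr1:135258423-135258722 on the minus strand.
Elf5: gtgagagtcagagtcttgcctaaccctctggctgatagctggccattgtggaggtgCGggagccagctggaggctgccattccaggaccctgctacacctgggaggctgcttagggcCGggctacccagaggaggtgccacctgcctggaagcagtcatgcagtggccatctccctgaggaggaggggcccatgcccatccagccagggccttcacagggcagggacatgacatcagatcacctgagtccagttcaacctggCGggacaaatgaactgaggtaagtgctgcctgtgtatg
Elf3: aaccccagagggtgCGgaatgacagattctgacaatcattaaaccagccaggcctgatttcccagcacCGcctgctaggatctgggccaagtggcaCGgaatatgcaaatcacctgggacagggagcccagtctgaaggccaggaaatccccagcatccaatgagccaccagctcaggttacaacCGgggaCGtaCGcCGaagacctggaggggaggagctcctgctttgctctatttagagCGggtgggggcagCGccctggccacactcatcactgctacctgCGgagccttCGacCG
The Elf5 window held 3 CpG dinucleotides and the Elf3 window 12, against a median of 7 and quartiles of 3 and 20 over 32851 windows of the same length. The RefSeq table gives Elf5 a further start, whose window held 10. Which start these cells used was not measured.

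Among the receptors, Esr1, which encodes the estrogen receptor alpha, was the gene with the largest increase of the 9. It read 5.60 and 5.71 in DMSO and 5.92 and 5.94 with GSK126. The groups did not overlap, and the gap of 0.21 between them exceeded the spread within either. The change was 0.28 (SE 0.12, 95% interval -0.01 to 0.57), a 1.21-fold higher mean, with an unadjusted p of 0.0580 and an adjusted p of 0.494 in limma. With 1 array left out it ran from 0.22 to 0.34.

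Pgr, which encodes the progesterone receptor and is itself a target of the estrogen receptor, was dim in both groups. It read 4.41 and 4.10 in DMSO and 3.94 and 4.23 with GSK126, and the groups overlapped. Its change was -0.17 (SE 0.19, 95% interval -0.61 to 0.27, adjusted p = 0.824 in limma), the widest interval of the 9. At this level neither the presence of the transcript nor the size of a change can be read from the array.

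Foxa1, the pioneer factor of the hormone-sensing branch, read 6.71 and 6.74 in DMSO and 6.63 and 6.57 with GSK126. The arrays of each group were close together and the groups lay 0.08 apart. The change of -0.13 (SE 0.10, 95% interval -0.37 to 0.12, adjusted p = 0.732 in limma) corresponds to a 1.09-fold lower mean. The limma test, which draws on the spread of other genes at this level, did not separate it from 0.

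Spdef, an ETS factor gene of secretory and luminal epithelia, read 5.03 and 4.95 in DMSO and 5.15 and 5.10 with GSK126. The groups did not overlap, but they lay 0.08 apart and close to the background level of 4.89. The change was 0.14 (SE 0.14, 95% interval -0.19 to 0.46, adjusted p = 0.797 in limma).

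Cited1, a coactivator gene whose product works with the estrogen receptor, read 5.33 and 5.55 in DMSO and 5.48 and 5.41 with GSK126. Both GSK126 arrays lay between the DMSO arrays. The change was 0.003 (SE 0.14, 95% interval -0.33 to 0.33, adjusted p = 0.999 in limma), and its sign turned with each array centred on its median (-0.05) and after quantile normalization (-0.04).

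The windows of Esr1 and Foxa1 are shown as the receptor with the largest increase and as the pioneer factor it works with, marked in the same way. The Esr1 window is the first of those listed for the gene and lies at chr10:4611739-4612038 on the plus strand. The Foxa1 window lies at chr12:57546062-57546361 on the minus strand.
Esr1: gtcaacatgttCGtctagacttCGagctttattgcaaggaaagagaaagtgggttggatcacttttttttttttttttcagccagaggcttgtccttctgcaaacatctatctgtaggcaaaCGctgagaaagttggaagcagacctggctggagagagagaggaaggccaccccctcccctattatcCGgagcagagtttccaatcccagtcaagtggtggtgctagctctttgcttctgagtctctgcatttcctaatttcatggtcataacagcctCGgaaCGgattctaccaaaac
Foxa1: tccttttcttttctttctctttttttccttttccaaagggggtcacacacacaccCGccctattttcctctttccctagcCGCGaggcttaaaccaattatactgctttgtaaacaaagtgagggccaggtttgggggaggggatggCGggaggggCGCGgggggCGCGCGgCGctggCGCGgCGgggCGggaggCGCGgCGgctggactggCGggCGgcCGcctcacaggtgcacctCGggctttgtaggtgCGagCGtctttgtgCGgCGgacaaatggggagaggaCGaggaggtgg
The Esr1 window held 6 CpG dinucleotides and the Foxa1 window 26. The windows of the set ran from 2 at a Prlr start and 3 at the Elf5 start printed above to 32 at a Cited1 start. The Gata3 window held 22. A further Esr1 start had 12, and the 3 Cited1 starts had 18, 14 and 32. In all, 9 of the 10 genes had a window, 15 windows in total, and none was listed for Ehf. The ETS-type motif AGGAAG, searched on both strands, stood in 7 of the 15 windows and in 35.4% of all windows, but in neither Elf5 window and not in that of Elf3. The forkhead motif TGTTTAC stood in 2 of the 15, at Foxa1 itself and at a Prlr start, against 3.6% of all windows. The motif AGATAA, of the GATA type, was in 0 of the 15 and in 11.2% of all windows, and AGGTCA, which nuclear receptors recognise, was in 1 of the 15 and in 16.3%.

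Gata3, which maintains luminal identity in both branches, had 2 probe sets. The brighter read 9.93 and 9.69 in DMSO and 9.69 and 9.64 with GSK126. DMSO replicate 2 fell at the level of GSK126 replicate 1, so the groups overlapped. The change was -0.14 (SE 0.10, 95% interval -0.38 to 0.09, adjusted p = 0.674 in limma), with -0.02 when DMSO replicate 1 was left out and -0.27 when DMSO replicate 2 was. The other probe set read 5.92 and 5.74 in DMSO and 5.77 and 5.65 with GSK126, a change of -0.12 in the same direction.

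**Figure D2:**
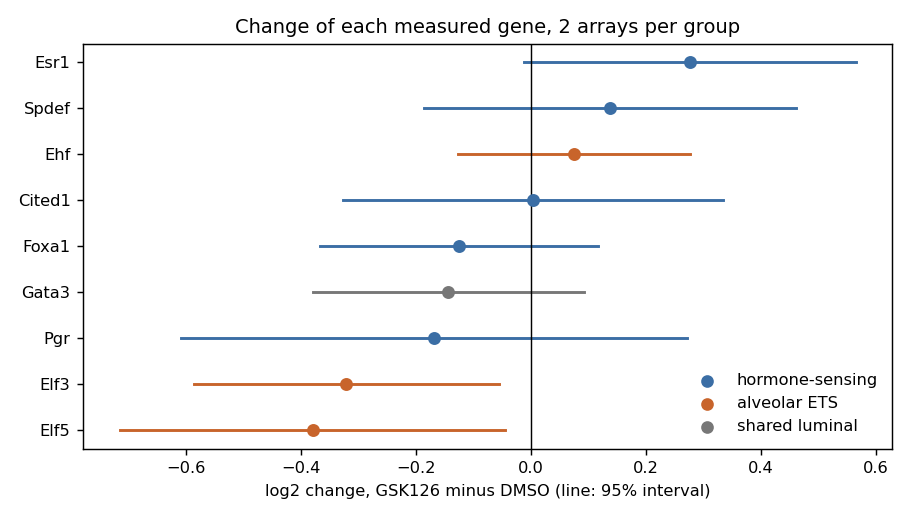
Log2 change of the 9 measured genes, GSK126 minus DMSO, with the 95% interval from limma (n = 2 arrays per group, colours give the grouping into hormone-sensing, alveolar and shared genes). The intervals of Elf5 and Elf3 lie below 0, that of Esr1 reaches -0.01, and the other 6 span 0 more widely.

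Hormone-sensing and alveolar genes were set against each other by averaging, in each array, the difference of every gene from its DMSO mean. The mean of the 5 hormone-sensing genes measured was 0.001 and -0.001 in the DMSO arrays and 0.01 and 0.04 in the GSK126 arrays. The mean of the 3 alveolar genes was 0.08 and -0.08 in DMSO and -0.21 in both GSK126 arrays. The alveolar mean was thus lower in both GSK126 arrays than in either DMSO array.

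The difference between the classes, hormone-sensing minus alveolar, was -0.07 and 0.07 in the DMSO arrays and 0.22 and 0.25 in the GSK126 arrays, a mean change of 0.23. It ran from 0.16 to 0.31 over the alternatives, leaving aside the filter on dim genes, which removes Pgr. No test was made of these means, because the genes were chosen with results of these data known. Signs were mixed within each class, though only the intervals of Elf5 and Elf3 lay apart from 0. Of the alveolar genes 2 had lower means and Ehf a higher one, and of the hormone-sensing genes 3 had higher means and 2 lower ones. Esr1 and Foxa1, which work together on chromatin, differed in sign, but the intervals of both span 0.

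**Figure D3:**
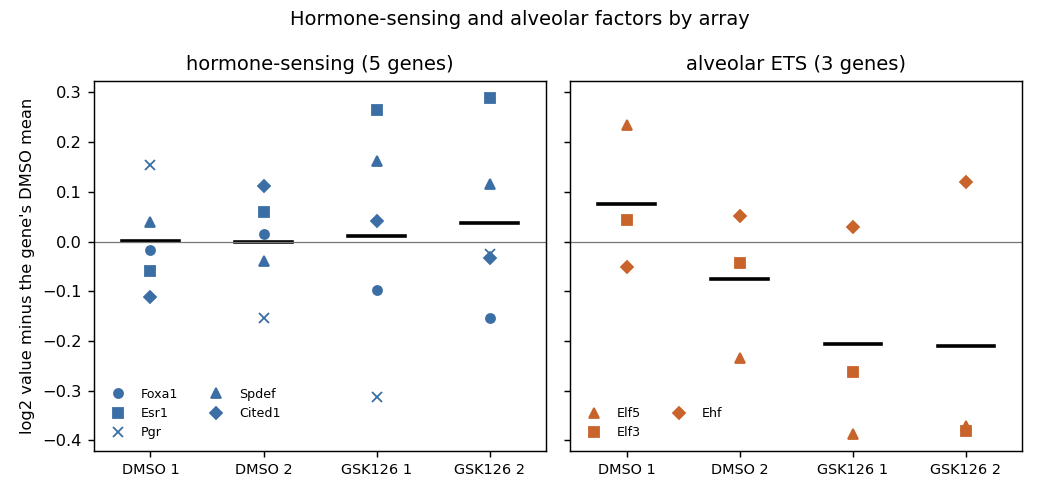
Log2 value of each gene minus its DMSO mean, in each of the 4 arrays, for 5 hormone-sensing genes (left) and 3 alveolar ETS genes (right). Black bars are the class means, which lie at 0.01 and 0.04 in the GSK126 arrays on the left and at -0.21 in both on the right, where Ehf stays above 0.

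Elf5 and Ehf are neighbours on the chromosome, with 2 long noncoding RNA genes between them in RefSeq (GRCm38.p6). Of these, BC016548, which lies next to Elf5, read 5.91 and 5.77 in DMSO and 5.44 and 5.71 with GSK126, a change of -0.27 (SE 0.14, adjusted p = 0.569 in limma). The other, A930006I01Rik, was dim in both groups. On the far side of Elf5 the catalase gene Cat was at 11.3 in every array (change -0.03, SE 0.08), followed by Abtb2 (0.10) and Nat10 (-0.09). Beyond Ehf lay Apip (0.08), Pdhx (-0.04) and the hyaluronan receptor gene Cd44 (-0.14). None of these 8 genes passed the threshold in limma, and 0 had an unadjusted p under 0.05, beside 10.6% of all genes.

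**Figure D4:**
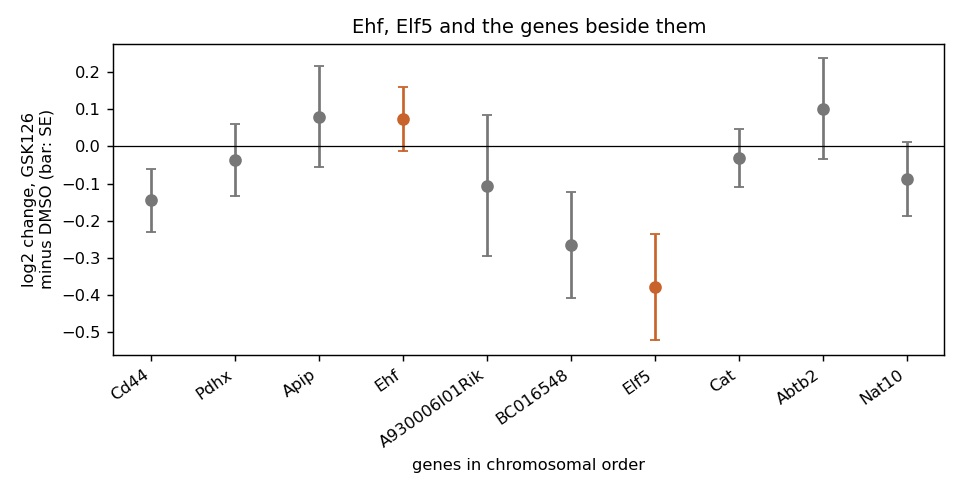
Log2 change, GSK126 minus DMSO, with its SE, for Ehf and Elf5 (orange), the 2 genes between them and 3 named genes on either side, in chromosomal order. Elf5 has the lowest value at -0.38, BC016548 beside it is at -0.27, and Ehf and the flanking genes lie between -0.14 and 0.10.

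The genes around the 2 branches were taken as lists. These were chosen with earlier results of these data known, so their counts and medians only describe. No list was tested as a set. Over all genes, 11529 had a lower mean with GSK126 and 10651 a higher one. In these lists 7 genes passed the threshold, beside 0.433% of all genes. None of the 7 calls held in limma with any 1 array left out, where a group is down to 1 array and 0 to 4 of all genes were called, but the changes were of similar size, for example from -1.73 to -1.46 for Hey1 and from 0.70 to 0.87 for Xdh. Genes of prolactin signalling and milk had a median change of -0.19 over 15 measured, of which 11 were lower and 4 higher. Past the threshold were the casein gene Csn1s1, which fell, and Xdh, the xanthine oxidoreductase gene of the milk fat globule, which rose. Csn1s1 read 10.9 and 10.8 in DMSO and 9.86 and 10.03 with GSK126 (change -0.92, adjusted p = 0.0122 in limma). Xdh rose by 0.78 (adjusted p = 0.0248 in limma). With an unadjusted p under 0.05 there were 7 lower and 1 higher of the 15, against 5.93% and 4.64% of all genes. Of the 15, 4 were dim in both groups, namely Csn1s2a, Csn2, Wap and Lalba, and Lalba was among the 7 lower. Another of the 7 was Stat5a, which encodes the factor that carries the prolactin signal and acts with ELF5. It read 8.29 and 8.28 in DMSO and 8.03 and 7.68 with GSK126 (-0.43, SE 0.12, adjusted p = 0.298 in limma). Another casein gene, Csn3, had a change of -0.28 (SE 0.09).

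Luminal progenitor genes had a median of -0.11 over 11 measured. Of these, 2 passed the threshold and both were lower, as 0.171% of all genes were. Hey1, a repressor induced by Notch signalling, fell by 1.59 on the log2 scale (adjusted p = 0.00582 in limma). Folr1, a folate receptor gene, read 6.22 and 6.27 in DMSO and 5.45 and 5.28 with GSK126, a fall of 0.87 (adjusted p = 0.0461 in limma). Notch3, a receptor of the same pathway as Hey1, had a change of -0.35 (adjusted p = 0.366).

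Genes of the hormone response and of hormone-sensing cells had a median of -0.004 over 12 measured, 6 higher and 6 lower. None passed the threshold in limma. Unadjusted p-values under 0.05 were found for 3 lower genes and 1 higher gene, beside 5.93% and 4.64% of all genes. Among the lower ones were Cdkn1b, an inhibitor of cyclin-dependent kinases (-0.36), and the transcription factor gene Myb (-0.33). The higher one was Ccnd1, the cyclin D1 gene (0.24).

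Partners and coregulators of the luminal factors had a median of -0.14 over 18 measured, with 15 below 0, but none passed the threshold in limma. Unadjusted, 4 had a p under 0.05 and a lower mean, and 1 a higher one, beside 5.93% and 4.64% of all genes. Closest was Tfap2c, which encodes the AP-2 gamma factor of luminal cells. It read 8.25 and 8.58 in DMSO and 7.71 and 7.67 with GSK126 (change -0.73, SE 0.12, adjusted p = 0.0655 in limma). The GATA cofactor genes differed in sign, with Zfpm1 at -0.43 (SE 0.13) and Zfpm2 at 0.39 (SE 0.11). Paralogs of the luminal factors and receptors had a median of -0.003 over 13 measured. None passed in limma, and 1 had an unadjusted p under 0.05, beside 10.6% of all genes. That gene was Cited4 (-0.24).

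The other ETS factor genes, 20 of them measured, had a median of -0.12, 15 of them lower and 5 higher. Etv5, a factor induced by MAPK signalling, fell by 0.86 (adjusted p = 0.0311 in limma), a call that ended when its probe sets were averaged (-0.49, adjusted p = 0.145). Its relative Etv1 had a change of -0.46 (adjusted p = 0.102), and Elk3, a repressor gene, one of 0.35 (adjusted p = 0.293). Unadjusted p-values under 0.05 were found for 2 lower genes and 1 higher gene, beside 10.6% of all genes.

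The 11 luminal epithelial markers measured had a median of -0.09, with none past the threshold in limma. Of these, 3 had an unadjusted p under 0.05, beside 10.6% of all genes. The claudin gene Cldn4 was at 0.39 (adjusted p = 0.146), and Cldn7 (-0.22) and Cd24a (-0.25) were lower. Basal epithelial markers had a median of 0.09 over 12 measured, which turned to -0.085 without dim genes and was 0.03 to 0.051 with 1 array left out. The oxytocin receptor gene Oxtr fell by 0.75 (adjusted p = 0.0479 in limma), and Tagln (0.51), Snai2 (0.56), Id4 (-0.43) and Krt14 (-0.51) did not pass. Unadjusted, 3 basal markers with a p under 0.05 were lower and 2 higher, beside 5.93% and 4.64% of all genes.

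Of the markers of other cell types, the lysosomal macrophage marker Cd68 rose by 1.00 (adjusted p = 0.010 in limma), while Ptprc, which marks all leukocytes, was dim at 3.52 in DMSO and 3.51 with GSK126. The mean over the 10 immune markers measured was 4.47 and 4.37 in DMSO and 4.61 and 4.53 with GSK126. It includes Cd68, which had the largest change of the 10, and 8 of the 10 were dim in both groups. The mean over 9 fibroblast markers was 4.71 and 4.59 in DMSO against 4.76 and 4.72 with GSK126. Fibroblast, endothelial and adipocyte markers had medians of 0.09, 0.08 and 0.00, with 0 past the threshold in limma. An unadjusted p under 0.05 was found for 2 of 9, 0 of 6 and 1 of 5, beside 10.6% of all genes. In bulk RNA, fewer cells of a type and less RNA per cell cannot be told apart. The part of these markers in the changes of Elf5, Elf3 and Esr1 was not tested. Ezh2, the gene of the drug's target, was at 9.52 in DMSO and 9.33 with GSK126 (-0.19, SE 0.09, adjusted p = 0.499 in limma).

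**Figure D5:**
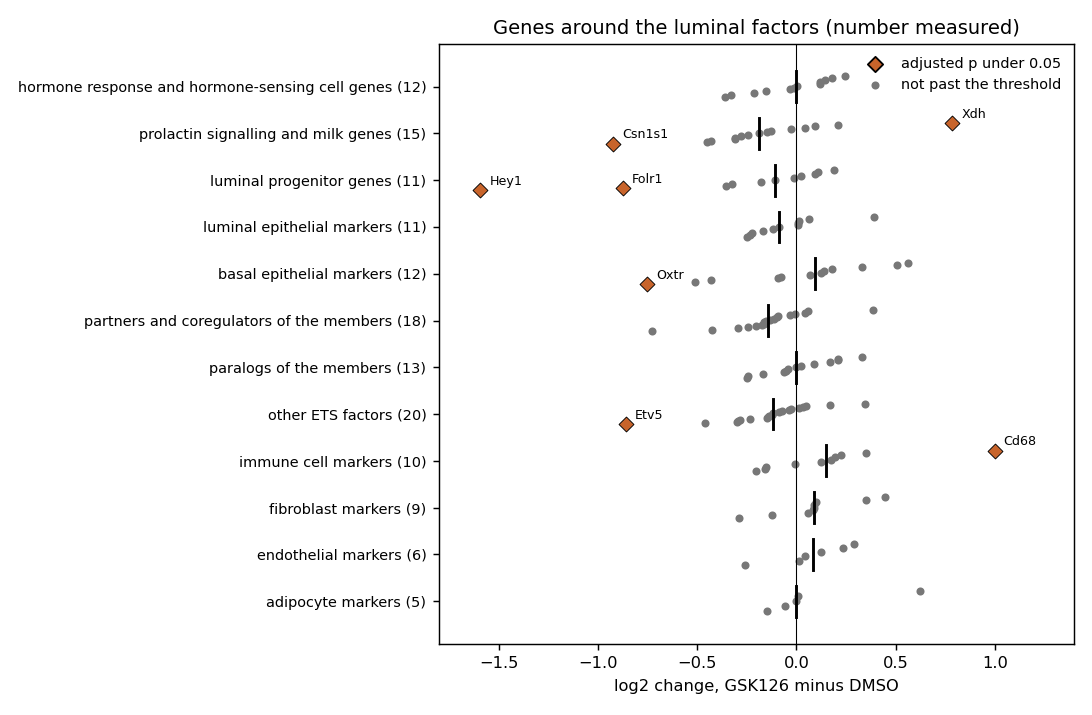
Log2 change, GSK126 minus DMSO, of the genes measured in each list (number in brackets). Diamonds mark genes with an adjusted p under 0.05, grey points the others and black bars the median, which is -0.19 for prolactin signalling and milk genes and -0.004 for hormone response genes.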

How the data were processed

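Total RNA from 2 DMSO and 2 GSK126 samples was read on Affymetrix arrays. The deposited log2 values were made by the authors with Expression Console, per the labels, as a robust multi-array average (RMA) of core exons. Affymetrix Power Tools is named in the submitters' processing notes. Versions, centring and genome build are not given in the sources used here. Values ran from 0.625 to 13.6, with array medians of 4.73 to 4.79, and no 2 arrays shared more than 181 identical values. The number of arrays limits the precision.

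Of 41345 probe sets, 23521 carried 1 symbol in the platform annotation, 1814 several and 16010 none, and those with several named no gene. Entrez identifiers matched 23328 probe sets to RefSeq (GRCm38.p6), with 0 symbols updated. Each of 22180 genes was read at its probe set with the highest mean. Differences were fitted with limma 3.58.1 in R 4.3.3, with an intensity trend. Its moderated test was two-sided, and p-values were adjusted by Benjamini-Hochberg across the 22180 genes (threshold 0.05, 2 residual and 5.57 prior degrees of freedom). The procedure was also run on simulated data, with variances drawn from the model fitted here. That run cannot show whether the calls hold in these arrays. From each list, genes past the threshold and up to 3 others with the smallest p were named, besides the 10 genes, the neighbours of Elf5 and Ehf, and Ezh2. Krt8, Krt18, Epcam, Krt14, Trp63 and Ptprc were added as defining markers after their values were seen. Csn1s2a, Csn2, Wap and Csf1r were named only with regard to the background level. Lalba was named for that level and as a dim gene among those counted as lower. The genes and lists were chosen with earlier results of these data known. Some genes of the lists were not analysed here. Alternatives were no trend, a robust prior, a filter at the 40th percentile of mean level (4.77) and averaged probe sets. In a further one every probe set with 1 symbol or none was tested singly, called all probe sets in the account of these fits. The rest were median centring, quantile normalization, a block for the replicate number, and omission of each array.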

Additional observations from a re-analysis of the deposited data

How the results depend on the processing

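None of the luminal factor and receptor genes passed the threshold under any of the 12 alternatives (lowest adjusted p = 0.190 in limma, for Elf5), where 103 of 107 values kept their direction. The 4 exceptions were those of Cited1, at -0.05 with centred arrays, -0.041 after quantile normalization, -0.109 without DMSO replicate 1 and -0.034 without GSK126 replicate 1, with values up to 0.116 when other arrays were left out. Pgr was left out by the filter on dim genes. The number of these genes at an unadjusted p under 0.05 was 1 without the trend and 1 with all probe sets, and ran from 0 to 3 with 1 array left out. The cause was not tested.

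The calls over all genes numbered 96, with 58 higher and 38 lower (55 and 62 with centred arrays), and 0 without the trend, 149 without dim genes, 0 with all probe sets and 0 to 4 with 1 array left out. At an unadjusted p under 0.05 in limma, 2346 genes stood in the fit of all arrays. Same-numbered arrays did not deviate together (r = -0.027 over all probe sets), and with the replicate number as a block 10 genes passed. List calls were 0 without the trend, 0 with all probe sets, 0 with 1 array left out and 0 with the block in limma, except that the progenitor list kept 1 (Hey1) with the block. The changes themselves are the same without the trend, with all probe sets and with the block (1.00 for Cd68 and -0.75 for Oxtr, for example). Averaging probe sets left 0 among the other ETS factors. Tfap2c passed, as 1 partner gene, without dim genes and with centred arrays.

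The hormone-sensing mean turned to -0.029 with centred arrays and -0.01 after quantile normalization, and ran from 0.011 to 0.038 with 1 array left out, where the alveolar mean ran from -0.284 to -0.133. With centred arrays, medians were -0.058 for hormone response, -0.241 for prolactin and milk, -0.144 for luminal, 0.041 for basal, -0.198 for partner and -0.173 for other ETS genes. Without dim genes they were -0.032 for hormone response, -0.244 for prolactin and milk, -0.041 for luminal, -0.085 for basal and 0.56 for immune genes, of which 2 remained, Cd68 and Csf1r. That filter is at 4.77 on the mean over all arrays, below the level of 4.89 that defines dim elsewhere. After quantile normalization they were -0.047 for hormone response and 0.05 for basal genes, and basal genes stood at 0.022 with averaged probe sets. With 1 array left out, medians ran from -0.056 to 0.032 for hormone response, -0.24 to -0.17 for prolactin and milk, -0.211 to -0.036 for progenitor, -0.118 to -0.006 for luminal, 0.03 to 0.051 for basal, -0.153 to -0.102 for partner, -0.151 to -0.057 for other ETS, 0.025 to 0.18 for immune, -0.003 to 0.156 for fibroblast and -0.121 to 0.268 for endothelial genes.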
